A study of Mus musculus with 24 samples.

Results

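The genes that make sterols and fatty acids were followed in sorted mouse β cells of offspring whose dams had eaten different diets. The set held 37 of the 33619 genes in the count table, chosen by gene name and with earlier results of these data known. It held 19 enzymes of the sterol branch and 6 genes that control the pathway or carry cholesterol. The other 12 were genes of fatty acid and lipid synthesis. Sterols are built from acetyl-CoA by way of mevalonate, farnesyl diphosphate, squalene and lanosterol, whereas fatty acids are built from malonyl-CoA and are then elongated and desaturated. Both branches answer to the SREBP transcription factors, which are held in the endoplasmic reticulum by INSIG proteins when sterols are plentiful and are escorted by SCAP to the Golgi, where they are cleaved, when sterols are scarce. SREBP-2, made from Srebf2, acts mainly on sterol genes and SREBP-1, made from Srebf1, mainly on fatty acid genes.

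All offspring came from wild-type CD1 dams, an outbred stock, mated to males carrying Ins1Apple, a fluorescent reporter at the Ins1 gene that is active in β cells. The dams received a high-fat diet (HFD), a low-protein diet (LPD) or the control diet (ND) for 2 weeks from about 7 weeks of age, and the sources used here do not say what they ate during pregnancy. After birth every mouse was kept on the control diet, and Apple-positive cells were sorted from dissociated islets about 7 weeks later. HFD, LPD and ND groups of males and of females gave 6 groups of 4 libraries, 24 in all, and no label says whether a library was 1 animal or a pool or which animals were littermates, so p-values measure only the spread between these libraries.

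Several properties of the libraries touch the results below. Diet was taken from the column names of the tables, but the library numbers written above those names place 24 of 24 libraries in another diet by the sample labels, and 8 of them in the other sex. The Xist and Y-linked counts matched the sex in the column name in 24 of 24 libraries, which does not settle the diets. The libraries held 12433228 to 26375565 counts. The HFD female libraries stood apart, with 13225 to 19404 genes detected against 19160 to 25830 in the other 20, and the common dispersion was 0.289 in the female fit and 0.0373 in the male fit. β-cell markers were abundant in every library (9 genes, a sum of 90210 to 299131 CPM, the counts-per-million scale of the library total). The sum over 14 hepatocyte markers was 76.5 to 135 CPM in HFD males and 145 to 252 CPM in HFD females, against 1.34 to 7.08 CPM in the other libraries, and Alb alone reached 32.6 to 119 CPM in HFD libraries. Adipocyte markers were at or near 0 (6 genes in the table, a sum of at most 0.536 CPM in any library), and Adipoq had counts in LPD female 1 only. The sum over 10 acinar markers was 71.2 to 817 CPM. It was 202 to 366 CPM in HFD males, 490 to 817 CPM in LPD males and 205 to 629 CPM in ND males. The sum over 6 markers of other islet cells was 533 to 2068 CPM. In sorted cells measured in bulk, fewer cells of a type and less RNA per cell cannot be told apart.

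Levels per gene length were compared first, as FPKM (counts scaled to gene length and library total). Acly, ATP citrate lyase, which makes cytosolic acetyl-CoA for both branches, stood far above the rest, with a median of 421 FPKM over the 24 libraries and a range of 293 to 609. Insig1, one of the proteins that hold SCAP in the endoplasmic reticulum, followed at 66.5 FPKM (53.3 to 86.1). Scd2, a stearoyl-CoA desaturase, had a median of 61.4 FPKM (31.8 to 76.7). Its relative Scd1, the main desaturase of liver and fat, had a median of only 1.91 FPKM (0.675 to 4.81). Only Acly was separated from its neighbour in this order; all other neighbours had overlapping ranges.

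The transcription factor genes were well expressed, Srebf1 at a median of 33.7 FPKM and Srebf2 at 27.1 FPKM, with Scap, their escort, at 10.6 FPKM. Aacs, which makes acetoacetyl-CoA from ketone bodies, had a median of 25.7 FPKM and Fasn, fatty acid synthase, 22.4 FPKM. Among sterol enzymes the squalene epoxidase gene Sqle was highest (24.1 FPKM), followed by Cyp51, the lanosterol demethylase (13.9 FPKM), and Hmgcs1, HMG-CoA synthase (11.8 FPKM). At the low end, Hsd17b7, the sterol 3-ketoreductase, had a median of 1.39 FPKM. Fdps, farnesyl diphosphate synthase, was lowest at 0.608 FPKM, with a range of 0.231 to 2.58, and its span overlapped another gene model on the same strand over 7512 bases, so that its counts are uncertain.

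**Figure D1:**
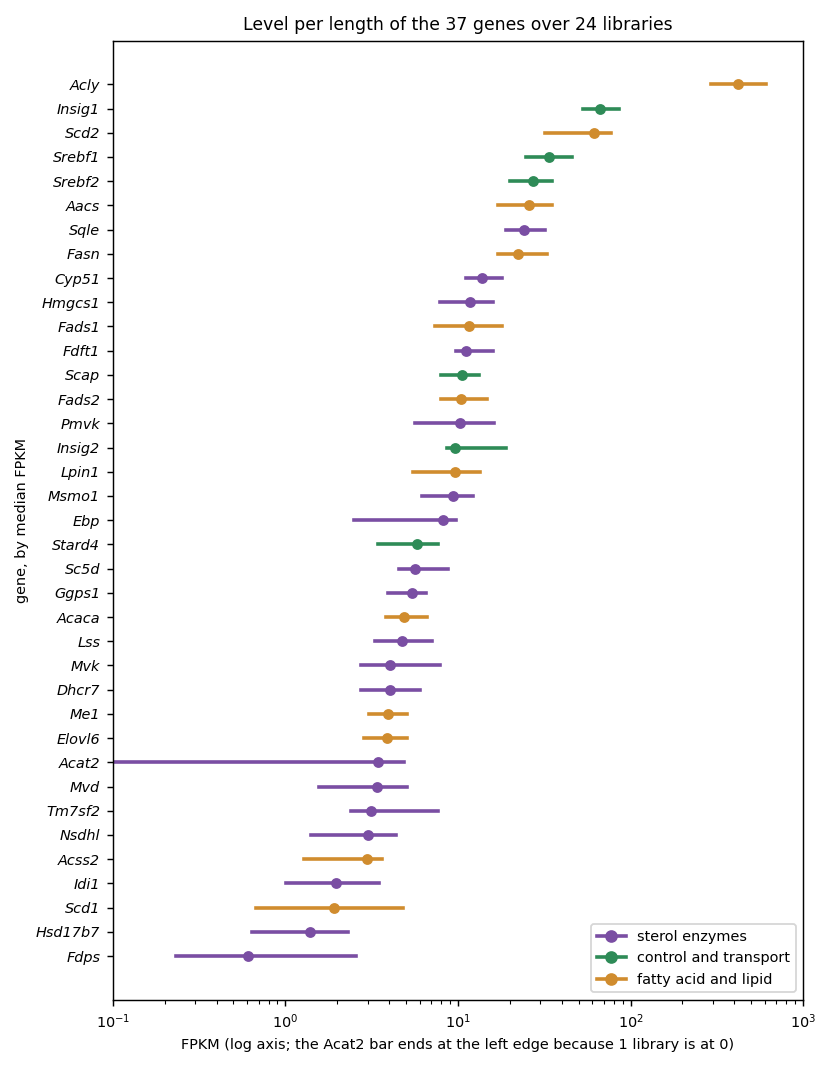
Median (point) and range (bar) of FPKM over 24 libraries for the 37 genes, on a log axis and ordered by median; colours mark sterol enzymes, control and transport genes, and fatty acid and lipid genes. Acly lies apart at 293 to 609 FPKM, and Fdps is lowest at 0.231 to 2.58 FPKM.

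The first comparison asked what a maternal HFD did in sons. In HFD males, 7 of the 37 genes rose against ND males and 1 fell. Of the 19 sterol enzymes, 4 rose (Hmgcs1, Msmo1, Fdft1 and Cyp51), as did 2 of the 6 control and transport genes (Insig1 and Stard4). Of the 12 fatty acid and lipid genes, Scd1 rose and Lpin1 fell. A gene was called at a Benjamini-Hochberg adjusted p under 0.05 in edgeR's quasi-likelihood test over all 17830 genes of the male fit. The 7 genes that rose were 18.9% of the set, and 2.71% of all genes tested rose. The 1 that fell was 2.7% of the set, and 3.24% of all genes fell, so that 5.96% were called in either direction. Because the set was chosen with earlier results of these data known, its shares here and below are descriptive only.

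Hmgcs1, which makes HMG-CoA at the entry of the mevalonate pathway, had 64.9, 58.0, 57.6 and 57.6 CPM (after TMM scaling, as for all single-gene levels below) in HFD males, against 39.2, 42.6, 37.7 and 46.4 CPM in ND males. Every HFD male lay above every ND male. The log2 fold change was 0.51 ± 0.09 (SE, edgeR adjusted p = 0.00347). LPD males had 45.1, 51.9, 48.6 and 53.6 CPM, all below the HFD males, with LPD male 1 among the ND males.

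Msmo1, the sterol C4-methyl oxidase, had 63.4, 78.6, 69.3 and 55.2 CPM in HFD males, against 45.3, 46.2, 39.3 and 48.9 CPM in ND males, again without overlap (log2 fold change 0.56 ± 0.11 SE, edgeR adjusted p = 0.00767). Fdft1, squalene synthase, which commits farnesyl diphosphate to sterols, had 57.3, 60.7, 56.6 and 56.0 CPM in HFD males, against 42.3, 41.0, 43.6 and 50.3 CPM in ND males. These did not overlap either (0.37 ± 0.09 SE on the log2 scale, edgeR adjusted p = 0.0169). Cyp51 had 83.4, 72.2, 77.3 and 64.7 CPM in HFD males, against 56.8, 57.9, 51.4 and 55.7 CPM in ND males (0.41 ± 0.10 SE on the log2 scale, edgeR adjusted p = 0.0178). Fdft1 and Cyp51 overlap Ctsb and Akap9, both on the opposite strand, over 774 and 166 bases of their gene spans. Hmgcs1 overlaps the noncoding gene Gm48342, also on the opposite strand, over 6190 bases. Gm48342 had a median of 55 counts, against 1001 for Hmgcs1. The strand setting of the counting is not given in the sources used here, so part of the counts of Fdft1, Cyp51 and Hmgcs1 is uncertain.

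Among control genes, Insig1, itself a target of SREBP-2, had 222, 244, 242 and 274 CPM in HFD males, against 181, 194, 192 and 181 CPM in ND males (0.38 ± 0.10 SE on the log2 scale, edgeR adjusted p = 0.0269). Stard4, a soluble cholesterol carrier, had 37.6, 34.7, 34.0 and 37.4 CPM in HFD males, against 22.1, 19.5, 21.2 and 27.8 CPM in ND males (0.66 ± 0.13 SE, edgeR adjusted p = 0.00782). Neither gene overlapped between the groups. The SREBP genes themselves were not called. Srebf2 had 192, 156, 159 and 182 CPM in HFD males, against 164, 162, 178 and 186 CPM in ND males, overlapping throughout (−0.01 ± 0.11 SE, edgeR adjusted p = 0.977). Srebf1 had 200, 165, 189 and 213 CPM in HFD males and 158, 157, 180 and 184 CPM in ND males (0.17 ± 0.16 SE, edgeR adjusted p = 0.639).

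In the fatty acid branch, Lpin1, a phosphatidate phosphatase on the way to triglyceride, had 89.8, 59.2, 73.3 and 78.3 CPM in HFD males, against 133, 122, 127 and 126 CPM in ND males. It lay lower in every HFD male than in any ND male (log2 fold change −0.76 ± 0.11 SE, edgeR adjusted p = 0.000422), the smallest p in the set. Scd1 had 15.7, 14, 13.1 and 11.9 CPM in HFD males, against 6.11, 4.71, 5.98 and 8.82 CPM in ND males (1.08 ± 0.28 SE, edgeR adjusted p = 0.0313). Scd1 and Scd2 are paralogs with similar coding sequences, and how reads that fit both were counted is not given in the sources used here. Scd2 had 312, 314, 321 and 334 CPM in HFD males and 286, 251, 274 and 320 CPM in ND males (0.17 ± 0.19 SE, edgeR adjusted p = 0.714). Fasn had 252, 217, 243 and 283 CPM in HFD males and 210, 220, 233 and 228 CPM in ND males (0.15 ± 0.14 SE, edgeR adjusted p = 0.644).

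**Figure D2:**
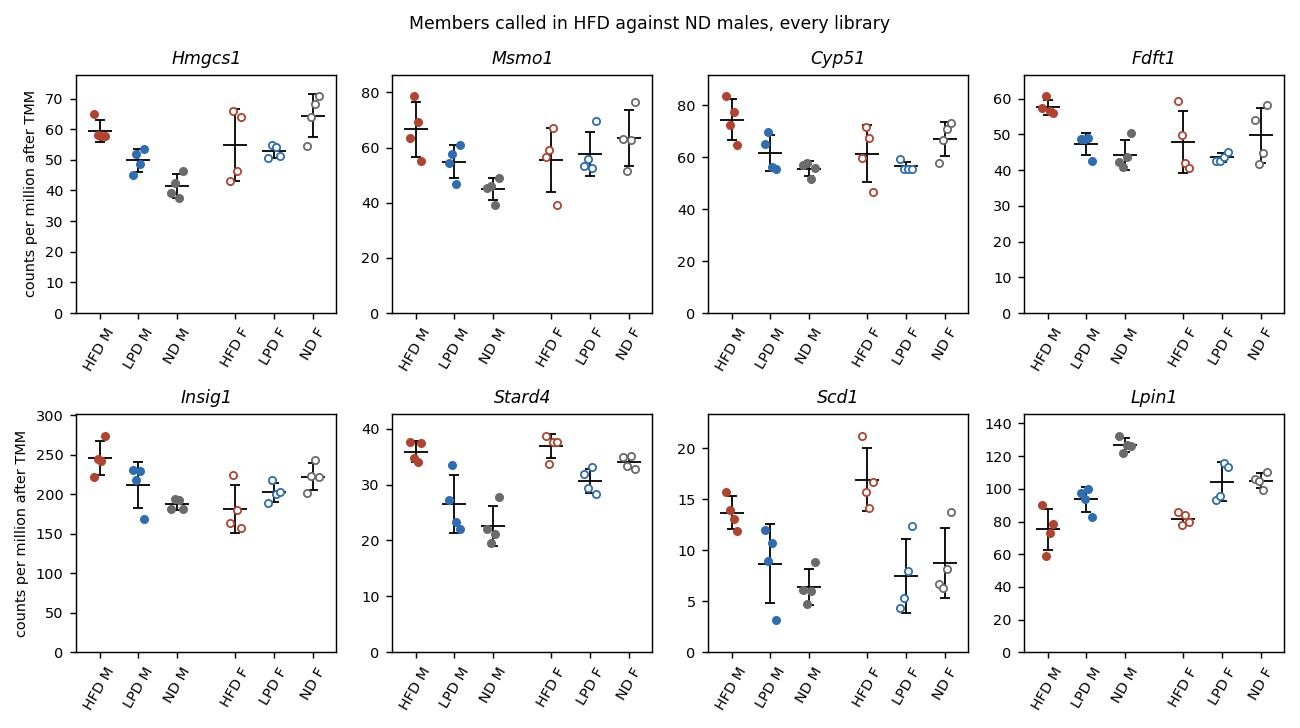
CPM after TMM scaling in each library (points) with the mean and SD (bars, n = 4) for the 8 genes called in HFD against ND males; M, males (filled points); F, females (open points). For all 8 genes the HFD and ND males do not overlap, while the HFD and ND females overlap for 6 of them and not for Scd1 and Lpin1. Of all genes tested, 18.5% do not overlap in males and 9.93% in females.

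The sterol branch shifted as a whole by little. Of the 19 sterol enzymes 17 had a fold change above 0 in HFD males, with a median of 0.24 on the log2 scale, against 48.8% above 0 and a median of −0.01 over all genes tested. The lowest was −0.09 and the highest 0.61, for Fdps. The summed level of the branch was 127 to 134 FPKM in HFD males, 125 to 131 FPKM in LPD males and 106 to 115 FPKM in ND males. In females it was 132 to 147 FPKM (HFD), 129 to 132 FPKM (LPD) and 137 to 156 FPKM (ND). The ND males were thus the group that stood apart, below every library of the other groups. The 12 fatty acid and lipid genes had a median of 0.10, with 8 above 0, and the 6 control genes a median of 0.08, with 3 above 0.

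None of the other sterol enzymes was called. Acat2, the cytosolic thiolase of the first step, stood at 0.53 ± 0.19 SE on the log2 scale (edgeR adjusted p = 0.104), with every HFD male above every ND male. Idi1, isopentenyl diphosphate isomerase, stood at 0.45 ± 0.23 SE and Sc5d, lathosterol oxidase, at 0.21 ± 0.11 SE, both with the same complete separation. Hsd17b7 stood at 0.44 ± 0.19 SE (edgeR adjusted p = 0.207), with 3 of 4 HFD males above every ND male and 1 below. Mvk, mevalonate kinase, stood at 0.24, and Nsdhl, which removes the C4 carboxyl group, at 0.31. Ebp, sterol isomerase, and Dhcr7, which makes cholesterol from its 7-dehydro precursor, both stood at 0.24. Pmvk, phosphomevalonate kinase, was at 0.04, Mvd, mevalonate diphosphate decarboxylase, at −0.09, and Tm7sf2, sterol C14 reductase, at 0.15. Lss, lanosterol synthase, was at −0.08, and Ggps1, which draws farnesyl diphosphate into protein prenylation, at 0.03. Sqle, a rate-setting step of the branch, had 131, 113, 121 and 116 CPM in HFD males and 115, 114, 113 and 133 CPM in ND males (0.01 ± 0.09 SE), which did not separate. In all, 11 of the 37 genes (29.7%) did not overlap between HFD and ND males, as did 18.5% of all genes tested.

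How far single libraries carried these calls was examined by leaving out each of the 12 male libraries. Hmgcs1, Msmo1, Stard4 and Lpin1 were called in 12 of 12 such fits. Fdft1 and Cyp51 were called in 8, Scd1 in 6 and Insig1 in 5. The LPD males are not part of this comparison and enter only the shared fit. Every miss fell among the 8 fits that left out an HFD or ND male. Of these, Insig1 missed in 7, Scd1 in 6, and Fdft1 and Cyp51 in 4 each. The count of genes called was 4 without HFD male 3, without ND male 1 or without ND male 3, and 5 without ND male 2, against 8 with all libraries. Hepatocyte markers moved with the same groups (76.5 to 135 CPM in HFD males, 2.02 to 2.48 CPM in ND males), and liver expresses all of these pathways. The sum over 9 β-cell markers moved as well, at 220349 to 299131 CPM in HFD males against 172427 to 200505 CPM in ND males, without overlap. The part of either in the result was not tested.

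The letters upstream of the genes that moved in males were read from RefSeq promoter windows (GRCm38.p6), which matched 30 of the 37 genes; Fdps, Fdft1, Sqle, Stard4, Fads1, Scd1 and Scd2 had none. Msmo1, which also rose in HFD males, and Lpin1, which fell, had windows that are not printed. The windows below are shown because 3 of their genes rose together in HFD males (Hmgcs1, Insig1 and Cyp51) and the other 2 (Srebf2 and Acly) were lower in HFD than in LPD males, as described further on. Each ends at or before the start of the gene model of the tables, runs 5′ to 3′ along the gene, and has in capitals the matches, on either strand, to a form of the SREBP element (TCACNCCAC), the NF-Y box (CCAAT) and the Sp1 box (GGGCGG). No match overlapped one of another motif.
Hmgcs1, chr13:119690101-119690350, plus strand: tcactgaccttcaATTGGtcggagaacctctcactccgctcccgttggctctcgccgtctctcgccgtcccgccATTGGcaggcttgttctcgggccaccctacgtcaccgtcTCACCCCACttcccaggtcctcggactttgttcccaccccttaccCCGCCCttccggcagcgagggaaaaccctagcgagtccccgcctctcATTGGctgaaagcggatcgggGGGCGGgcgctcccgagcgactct
Insig1, chr5:28071162-28071362, plus strand: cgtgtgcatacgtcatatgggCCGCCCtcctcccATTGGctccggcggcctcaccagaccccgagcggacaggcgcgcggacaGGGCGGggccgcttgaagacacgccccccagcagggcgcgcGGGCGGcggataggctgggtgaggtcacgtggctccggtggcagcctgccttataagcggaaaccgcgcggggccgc
Cyp51, chr5:4104747-4104947, minus strand: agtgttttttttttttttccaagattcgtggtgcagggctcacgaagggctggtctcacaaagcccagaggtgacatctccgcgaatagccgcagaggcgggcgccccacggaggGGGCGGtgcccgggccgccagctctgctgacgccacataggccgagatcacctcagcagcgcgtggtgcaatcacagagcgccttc
Srebf2, chr15:82147019-82147180, plus strand: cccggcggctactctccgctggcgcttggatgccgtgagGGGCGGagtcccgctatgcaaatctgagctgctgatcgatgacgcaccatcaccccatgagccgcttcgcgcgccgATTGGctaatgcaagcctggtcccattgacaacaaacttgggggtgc
Acly, chr11:100528001-100528250, minus strand: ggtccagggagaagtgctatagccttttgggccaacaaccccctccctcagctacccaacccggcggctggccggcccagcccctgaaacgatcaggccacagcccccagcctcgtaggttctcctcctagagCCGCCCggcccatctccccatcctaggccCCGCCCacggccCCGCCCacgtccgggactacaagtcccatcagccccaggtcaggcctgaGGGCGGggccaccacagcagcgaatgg

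Over the first 250 bases of each window, the SREBP element form was found in 1 of the 39 windows of the matched genes, that of Hmgcs1. It was in 1.05% of 32851 windows of the same length. The printed stretches of Insig1, Cyp51 and Srebf2 are shorter (201, 201 and 162 bases), as they end at the gene model's start. Cyp51 thus counts for the NF-Y box here, with none in its printed stretch. The NF-Y box was in 23 of the 39 windows and in 33.8% of all windows, and the Sp1 box in 26 of the 39 and in 32.7% of all. Hmgcs1 held 1 SREBP form, 3 NF-Y boxes and 2 Sp1 boxes in the stretch printed. These are matches of letters only.

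In daughters of HFD dams no gene of the set was called against ND females in edgeR, and 8 of the 37 (21.6%) had an unadjusted p under 0.05. Over all 18146 genes 3.03% were called and 13.1% had an unadjusted p under 0.05. DESeq2 called 2 of the genes (954 over all genes), and voom with quality weights called 0 (115 over all genes). The sterol enzymes split evenly, with 9 of 19 above 0 and a median of −0.03 (all genes tested: 42.5% above 0, median −0.08). Control genes had a median of 0.21 and fatty acid genes of 0.02. The median coefficient of variation over the 37 genes was 18.1% in HFD females and 14.5% in ND females, against 11.5% in HFD males and 7.9% in ND males. Acat2 had 0 counts in HFD female 1, a count that allows up to 0.235 CPM, and 8.29 to 11.3 CPM in the other HFD females.

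The genes with the smallest p of their branch in this comparison were Lpin1, Scap and Mvk. Lpin1 had 85.5, 77.7, 84.3 and 79.5 CPM in HFD females, against 106, 105, 99.1 and 110 CPM in ND females. The groups did not overlap, as in males, but the test was missed (−0.36 ± 0.10 SE, edgeR adjusted p = 0.0651). Scap had 89.0, 88.5, 78.9 and 84.4 CPM in HFD females, against 70.3, 62.0, 58.2 and 80.7 CPM in ND females (0.33 ± 0.11 SE, edgeR adjusted p = 0.153). Mvk had 19, 13.2, 13.1 and 17.2 CPM in HFD females and 10.6, 9.29, 11 and 12.6 CPM in ND females (0.52 ± 0.23 SE, edgeR adjusted p = 0.355). Scd1 also lay higher in every HFD female (21.3, 15.7, 14.1 and 16.7 CPM) than in any ND female (6.73, 6.34, 8.2 and 13.8 CPM), at 0.95 ± 0.36 SE (edgeR adjusted p = 0.243). Fads2, the delta-6 desaturase, stood at 0.50 ± 0.19 SE (edgeR adjusted p = 0.241), likewise without overlap. In all, 5 of the 37 genes (13.5%) did not overlap between HFD and ND females, as did 9.93% of all genes tested.

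For the genes that rose in HFD males, Scd1 is given above and the others had these female values. Hmgcs1 had 42.9, 65.9, 46.3 and 64.1 CPM in HFD females, against 54.6, 64.1, 68.2 and 70.8 CPM in ND females. Msmo1 had 56.7, 59.1, 67.1 and 39.4 CPM in HFD females, against 63.3, 51.5, 62.7 and 76.6 CPM in ND females. Insig1 had 163, 224, 180 and 157 CPM in HFD females, against 202, 223, 243 and 221 CPM in ND females. All 3 overlapped between the female groups, and their fold changes were −0.23, −0.19 and −0.29. Fdft1 stood at −0.05 ± 0.14 SE and Cyp51 at −0.13 ± 0.13 SE, both with overlapping groups. Insig2, the second INSIG gene, had 35.8, 36.2, 42.0 and 62.0 CPM in HFD females, against 33.2, 32.2, 31.3 and 30.6 CPM in ND females (0.46 ± 0.16 SE, edgeR adjusted p = 0.188). Stard4 had 38.8, 33.7, 37.6 and 37.6 CPM in HFD females and 34.9, 33.3, 35.0 and 32.9 CPM in ND females (0.12 ± 0.12 SE).

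Srebf1 had 218, 181, 189 and 243 CPM in HFD females, against 175, 146, 144 and 212 CPM in ND females (0.30 ± 0.13 SE, edgeR adjusted p = 0.337). Srebf2 had 173, 202, 189 and 194 CPM in HFD females, within the ND female range (0.05 ± 0.10 SE). Neither transcription factor gene separated the groups. Fasn had 264, 284, 254 and 299 CPM in HFD females (0.25 ± 0.15 SE), all within the ND female range. Sqle had 160, 130, 133 and 109 CPM in HFD females (−0.03 ± 0.12 SE), wider than the ND females on both sides. Scd2 had 334, 399, 349 and 298 CPM in HFD females (−0.03 ± 0.11 SE) and overlapped ND females as well. Acly had 2903, 2595, 2332 and 2496 CPM in HFD females (0.19 ± 0.13 SE), of which all lay below ND female 4 and above ND females 1 to 3.

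Single libraries moved this count. Without HFD female 2, chosen for a closer account after seeing the data, Insig1 fell (−0.42 ± 0.09 SE, edgeR adjusted p = 0.01) and Insig2 rose (0.55 ± 0.16 SE, edgeR adjusted p = 0.0483). In that fit 12.1% of all genes were called, 1.25% higher and 10.8% lower. The count was 1 without HFD female 1 and 1 without ND female 4. Genes detected (13813, 19404, 17130 and 13225 in HFD females 1 to 4) and hepatocyte markers (145 to 252 CPM in HFD females, 1.59 to 3.18 CPM in ND females) moved with these groups, and their part in the values was not tested.

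The difference between the sexes in the HFD effect was tested directly, in 1 fit of all 24 libraries. In 3 of the 37 genes the HFD effect was higher in males than in females: Hmgcs1 (difference 0.76 ± 0.17 SE on the log2 scale, edgeR adjusted p = 0.0151), Insig1 (0.69 ± 0.15 SE, edgeR adjusted p = 0.0123) and Msmo1 (0.76 ± 0.21 SE, edgeR adjusted p = 0.0382). No gene was lower. These were 8.11% of the set, while 3% of all 19235 genes tested were higher and 3.64% were called in either direction. Cyp51 (0.55 ± 0.16 SE, edgeR adjusted p = 0.0576) and Stard4 (0.55 ± 0.18 SE, edgeR adjusted p = 0.0927) missed the threshold. The median over the 19 sterol enzymes was 0.30, against 0.10 over all genes.

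Scd1, by contrast, had a difference of 0.14 ± 0.48 SE, and the smallest p of the fatty acid branch belonged to Lpin1 (−0.39 ± 0.15 SE, edgeR adjusted p = 0.145). Leaving out each of the 24 libraries kept Hmgcs1 and Insig1 called in 24 of 24 fits and Msmo1 in 14 of 24. The LPD libraries are not part of this contrast, and all 10 misses of Msmo1 fell where an HFD or ND library was left out. Msmo1 also missed the threshold with HFD females 1 and 4 left out (edgeR adjusted p = 0.0761). The count was 5 without HFD female 2. Voom with quality weights called none of the 37 genes in this contrast and 21 genes in all. Genes detected and the spread of the HFD female libraries enter this contrast too, and their part was not tested.

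**Figure D3:**
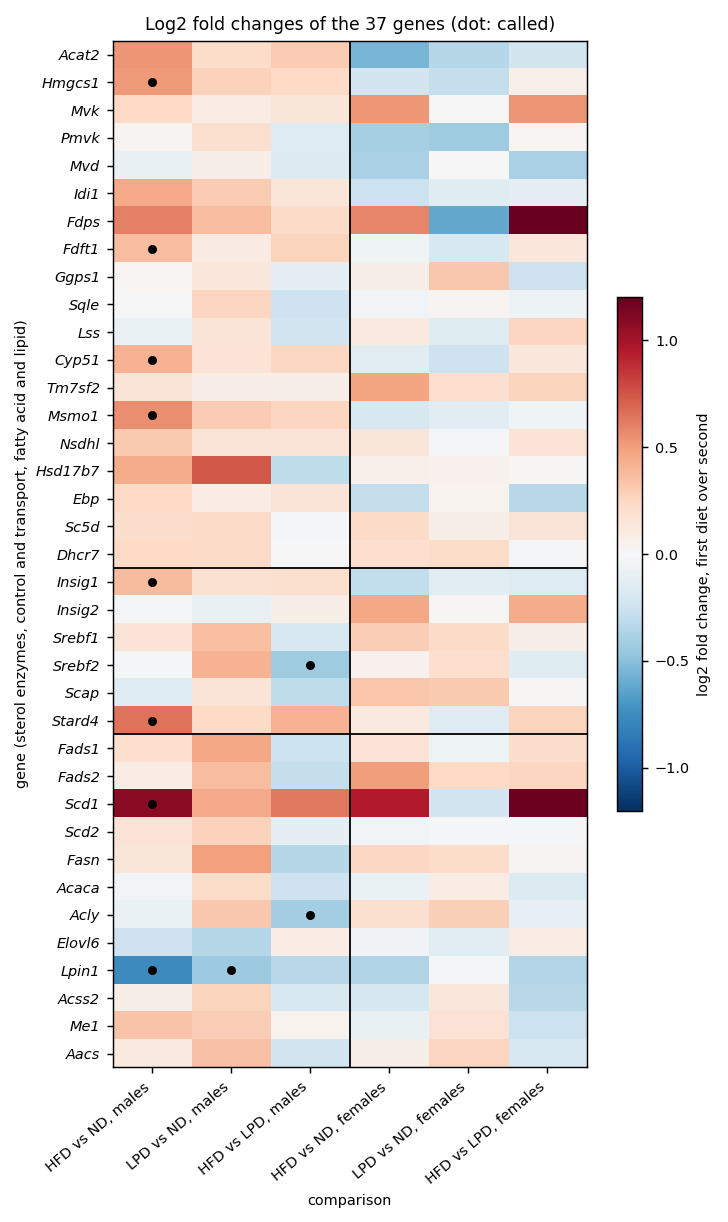
Log2 fold changes of the 37 genes (rows, in 3 blocks: sterol enzymes, control and transport, fatty acid and lipid) in 6 comparisons within a sex (columns), red where the diet named first is higher; a dot marks a call in edgeR. Dots stand in the 3 male columns only, 8 for HFD against ND, 1 for LPD against ND and 2 for HFD against LPD.

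A maternal LPD was compared with ND in sons next. With all 12 male libraries only Lpin1 was called, and it fell. It had 97.6, 93.6, 99.9 and 82.9 CPM in LPD males, against 133, 122, 127 and 126 CPM in ND males, without overlap (−0.43 ± 0.11 SE, edgeR adjusted p = 0.0442). Over all genes 1.9% were called and 0.998% were lower. None of the 37 genes rose. An unadjusted p under 0.05 was found in 15 of them (40.5%), 13 with a positive and 2 with a negative fold change, and in 15.3% of all genes tested. Of the sterol enzymes, 19 of 19 had a fold change above 0, with a median of 0.19 (all genes: 51.8% above 0, median 0.01). Fatty acid genes had a median of 0.31, with 10 of 12 above 0. Between LPD and ND males 5 of the 37 genes (13.5%) did not overlap, as did 10.3% of all genes tested. The ND males are the same libraries as in the HFD comparison.

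The SREBP genes and several fatty acid genes, none of them called, had these values. Srebf2 had 244, 210, 272 and 190 CPM in LPD males, against 164, 162, 178 and 186 CPM in ND males (0.42 ± 0.11 SE, edgeR adjusted p = 0.0511). Every LPD male lay above every ND male. Srebf1 had 255, 205, 272 and 133 CPM in LPD males (0.36 ± 0.16 SE, edgeR adjusted p = 0.287), where LPD males 1 to 3 exceeded and LPD male 4 fell below all ND males. Fasn repeated this pattern, with 350, 308, 388 and 202 CPM in LPD males (0.49 ± 0.14 SE, edgeR adjusted p = 0.0918). Scd2 had 407, 390, 399 and 166 CPM in LPD males (0.27 ± 0.19 SE, edgeR adjusted p = 0.513). Scd1 had 12, 8.94, 10.7 and 3.16 CPM in LPD males (0.46 ± 0.29 SE, edgeR adjusted p = 0.471). In all 4 of these genes the library labelled LPD male 4 lay below every ND male.

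Further sterol and control genes showed the same library apart or joined to the rest. Hsd17b7 had 9.68, 9.10, 9.54 and 6.84 CPM in LPD males, against 5.07, 5.71, 4.96 and 5.35 CPM in ND males (0.75 ± 0.19 SE, edgeR adjusted p = 0.0534), the smallest p of the sterol branch. Sqle had 144, 155, 145 and 121 CPM in LPD males (0.26 ± 0.09 SE, edgeR adjusted p = 0.167), of which LPD males 1 to 3 exceeded all ND males. Insig1 had 231, 218, 230 and 169 CPM in LPD males, against 181, 194, 192 and 181 CPM in ND males. Acly had 2605, 2309, 2712 and 1975 CPM in LPD males, against 1895, 1866, 1962 and 1968 CPM in ND males (0.33 ± 0.09 SE, edgeR adjusted p = 0.0753), narrowly without overlap. Hmgcs1, called in HFD males, stood at 0.27 ± 0.09 SE here (edgeR adjusted p = 0.154). Msmo1 had 54.4, 57.8, 46.7 and 61.0 CPM in LPD males, with 3 of 4 above every ND male (0.30 ± 0.11 SE, edgeR adjusted p = 0.206). Stard4 had 27.3, 33.5, 23.4 and 22 CPM in LPD males, with 1 of 4 above every ND male (0.24 ± 0.13 SE, edgeR adjusted p = 0.416).

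LPD male 4 also stood apart outside the pathway. Ins2, an insulin gene, gave 20256 CPM of the library total there, against 82480, 112443 and 84327 CPM in LPD males 1 to 3 and 78693 to 90414 CPM in ND males. Ins1, the other insulin gene, did not (92394 CPM, against 87682 to 113701 CPM in LPD males 1 to 3). Malat1, a nuclear noncoding RNA, gave 18053 CPM in LPD male 4, within the ND male range of 14912 to 20999 CPM, whereas LPD males 1 to 3 had 9447 to 10456 CPM. LPD females 1 to 3 had low Ins2 values too (32742, 32454 and 50372 CPM). So did a control library, ND female 2 (39671 CPM), where Ins1 was low as well (36827 CPM).

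Without LPD male 4, a fit chosen for a closer account after seeing the data, 15 of the 37 genes rose in LPD males and 1, Lpin1, fell. The 15 were 40.5% of the set, beside 4.3% of all 18212 genes tested that rose in this fit. Of all genes 4.73% fell and 9.03% were called in all. LPD male 4 was the lowest LPD male for each of the 15, so leaving it out favours a rise in them. This share is therefore no independent comparison with all genes. Of the 12 fatty acid and lipid genes 8 rose: Fads1, the delta-5 desaturase (0.66 ± 0.09 SE, edgeR adjusted p = 0.000176), Fasn (0.65 ± 0.09 SE, edgeR adjusted p = 0.000213), Scd2 (0.50 ± 0.08 SE, edgeR adjusted p = 0.000566), Acly (0.40 ± 0.07 SE, edgeR adjusted p = 0.00127), Scd1 (0.72 ± 0.18 SE, edgeR adjusted p = 0.0194), Aacs (0.42 ± 0.11 SE, edgeR adjusted p = 0.0224), Fads2 (0.48 ± 0.13 SE, edgeR adjusted p = 0.0275) and Acaca, the acetyl-CoA carboxylase that makes malonyl-CoA (0.28 ± 0.07 SE, edgeR adjusted p = 0.0251). Of the 6 control genes 3 rose, Srebf1 (0.53 ± 0.10 SE, edgeR adjusted p = 0.00311), Srebf2 (0.49 ± 0.10 SE, edgeR adjusted p = 0.00314) and Insig1 (0.27 ± 0.08 SE, edgeR adjusted p = 0.0324). Of the 19 sterol enzymes 4 rose: Hsd17b7 (0.84 ± 0.18 SE, edgeR adjusted p = 0.00696), Sqle (0.32 ± 0.08 SE, edgeR adjusted p = 0.0176), Lss (0.31 ± 0.09 SE, edgeR adjusted p = 0.0324) and Dhcr7 (0.40 ± 0.12 SE, edgeR adjusted p = 0.0487). Lpin1 stood at −0.39 ± 0.10 SE (edgeR adjusted p = 0.0233). Which of these fits is nearer to the LPD group cannot be told from 4 libraries. The count was 2 without HFD male 1 or HFD male 2, and it was 0 without any one of HFD males 3 and 4, LPD males 1 to 3 and ND males 1 to 4, where Lpin1 missed the threshold (highest edgeR adjusted p = 0.166).

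**Figure D4:**
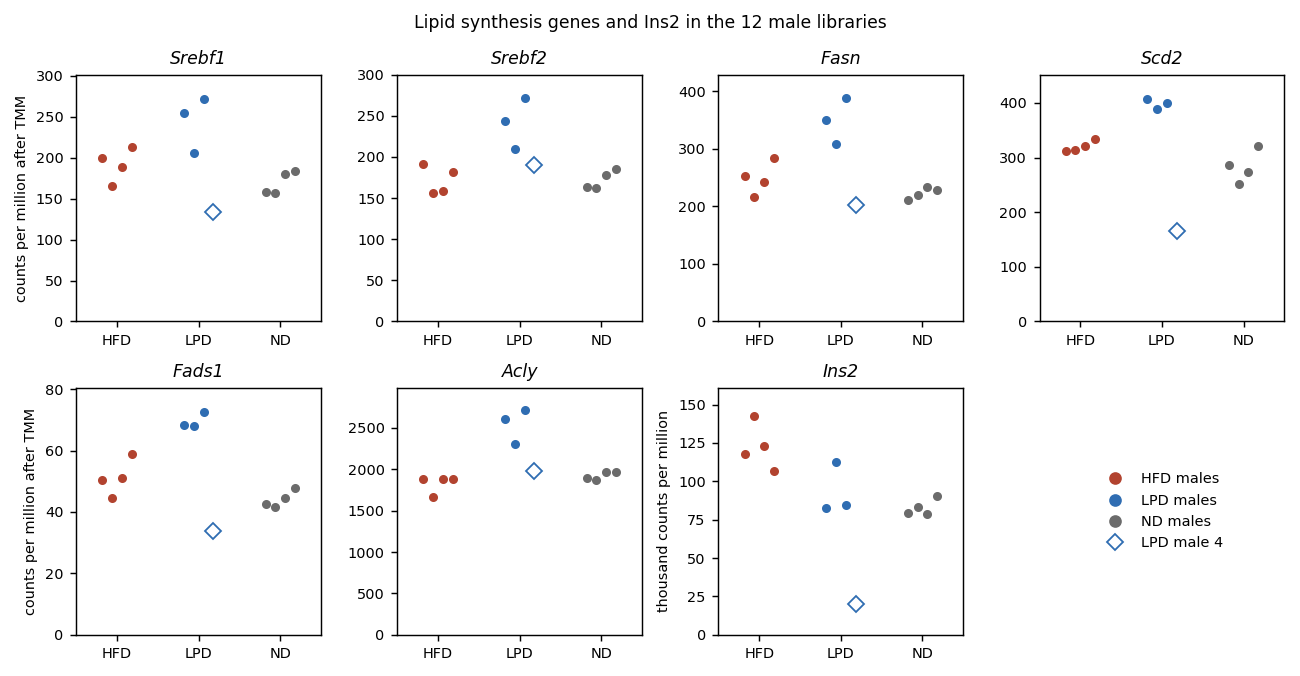
CPM after TMM scaling of 6 genes, and CPM of the library total for Ins2, in HFD, LPD and ND males; each point is a library and the open diamond is LPD male 4. For Srebf1, Fasn, Scd2 and Fads1 LPD males 1 to 3 lie above all ND males and LPD male 4 below them; Ins2 is 20256 CPM in LPD male 4.

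The diets were also set against each other in sons. In HFD males Srebf2 and Acly were lower than in LPD males, and none of the 37 genes was higher. Srebf2 had 192, 156, 159 and 182 CPM in HFD males, against 244, 210, 272 and 190 CPM in LPD males, where HFD male 1 lay above LPD male 4 (−0.43 ± 0.11 SE, edgeR adjusted p = 0.0163). Acly had 1881, 1668, 1877 and 1884 CPM in HFD males, against 2605, 2309, 2712 and 1975 CPM in LPD males, with no overlap (−0.41 ± 0.09 SE, edgeR adjusted p = 0.00909). The 2 genes were 5.41% of the set, while 6.17% of all genes were lower and 9.61% were called in either direction, a share near the background. Without overlap were 5 of the 37 genes (13.5%) and 11.9% of all genes tested. Hepatocyte markers (76.5 to 135 CPM in HFD males, 1.88 to 7.08 CPM in LPD males) moved with these groups. So did acinar markers (202 to 366 CPM in HFD males, 490 to 817 CPM in LPD males), and the part of either was not tested.

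The difference between the branches was not tested here. Of the 19 sterol enzymes 12 stood above 0, with a median of 0.15 and the smallest p for Fdft1 (0.27 ± 0.09 SE, edgeR adjusted p = 0.0593), whose LPD males had 48.7, 48.8, 48.9 and 42.6 CPM. Of the 12 fatty acid genes 3 stood above 0, with a median of −0.24. The median over all genes tested was 0.00 and 49.8% were above 0. Without LPD male 4, Hmgcs1, Fdft1 and Msmo1 were higher in HFD males (8.75% of all genes were) and 11 genes were lower (9.49% of all genes), with 18.2% called in all. In that fit the sterol median was 0.03, with 11 of 19 above 0, against 0.04 and 54.2% over all genes. The 11 were Fasn (−0.48 ± 0.09 SE, edgeR adjusted p = 0.00161), Acly (−0.47 ± 0.07 SE, edgeR adjusted p = 0.000196), Fads1, Scd2, Acaca and Lpin1 of the fatty acid branch, Srebf1, Srebf2 (−0.48 ± 0.10 SE, edgeR adjusted p = 0.00193) and Scap of the control genes, and Sqle and Lss of the sterol branch. LPD male 4 was the lowest LPD male for each of these 11, so leaving it out favours such calls. The count of genes called was 4 without LPD male 2, 1 without HFD male 3, LPD male 1 or LPD male 3, and 0 without HFD male 2.

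In daughters of LPD dams none of the 37 genes was called against ND females, with an unadjusted p under 0.05 in 3 (8.11%), 0 called by DESeq2 and 3 by voom with quality weights. Of all genes 0.011% were called and 5.29% had an unadjusted p under 0.05. DESeq2 called 114 genes in all and voom 1302. Scap had 81.3, 84.6, 89.0 and 83.0 CPM in LPD females, against 70.3, 62.0, 58.2 and 80.7 CPM in ND females, without overlap (0.31 ± 0.11 SE, edgeR adjusted p = 0.577). Ggps1 had 27.0, 27.8, 29.3 and 30.1 CPM in LPD females, against 24.4, 22.6, 24.1 and 20.2 CPM in ND females (0.32 ± 0.14 SE, edgeR adjusted p = 0.902). Acly had 3076, 2904, 2701 and 2378 CPM in LPD females, against 2077, 2062, 1946 and 2964 CPM in ND females, where ND female 4 lay among the LPD females (0.29 ± 0.13 SE, edgeR adjusted p = 0.935). The sterol median was −0.01, with 7 of 19 above 0. Between LPD and ND females 4 of the 37 genes (10.8%) did not overlap, as did 10.2% of all genes tested.

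Genes named earlier for males had these LPD female values. Srebf1 had 184, 193, 205 and 212 CPM in LPD females and 175, 146, 144 and 212 CPM in ND females. Srebf2 had 201, 206, 213 and 220 CPM in LPD females and 190, 165, 159 and 217 CPM in ND females. Both overlapped only through ND female 4. Fasn had 242, 232, 290 and 314 CPM in LPD females and 230, 217, 175 and 304 CPM in ND females. Scd2 had 309, 327, 380 and 387 CPM in LPD females and 329, 340, 348 and 397 CPM in ND females. Sqle had 130, 138, 144 and 144 CPM in LPD females and 138, 116, 131 and 157 CPM in ND females. These 3 genes overlapped between the diets. Hmgcs1 had 50.4, 55.0, 54.2 and 51.4 CPM in LPD females, with LPD females 1, 3 and 4 below every ND female (−0.29 ± 0.14 SE). Msmo1 had 53.3, 55.8, 52.5 and 69.5 CPM and Insig1 189, 218, 200 and 203 CPM in LPD females, and both overlapped ND females. Stard4 had 31.8, 29.4, 33.1 and 28.3 CPM in LPD females (−0.15 ± 0.12 SE), with LPD females 1, 2 and 4 below every ND female.

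HFD females against LPD females likewise gave no call among the 37 genes, with 1 called by DESeq2 and 0 by voom with quality weights. Over all genes DESeq2 called 888 and voom 112. An unadjusted p under 0.05 was found in 5 of the 37 (13.5%) and in 12.3% of all genes, of which 3.12% were called. Insig2 had the 4 HFD female values given above, against 32.1, 31.8, 31.7 and 33.6 CPM in LPD females (0.45 ± 0.16 SE, edgeR adjusted p = 0.226). Scd1 had 21.3, 15.7, 14.1 and 16.7 CPM in HFD females, against 4.30, 5.36, 7.96 and 12.4 CPM in LPD females, without overlap (1.18 ± 0.36 SE, edgeR adjusted p = 0.122). Lpin1 was lower in each HFD female than in any LPD female, which had 93.1, 95.4, 116 and 113 CPM (−0.35 ± 0.10 SE, edgeR adjusted p = 0.0762). Mvk had 12.6, 11.3, 9.92 and 9.61 CPM in LPD females (0.53 ± 0.23 SE, edgeR adjusted p = 0.373), all below the HFD females. Between HFD and LPD females 6 of the 37 genes (16.2%) did not overlap, as did 10.5% of all genes tested. Without LPD female 4, 1 of the 37 genes was called, and it was higher.

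The LPD effect did not differ between the sexes at the threshold in any of the 37 genes, with 0 called by DESeq2 and 8 by voom with quality weights. Over all genes DESeq2 called 22 and voom 1129. An unadjusted p under 0.05 was found in 6 of the 37 (16.2%) and in 4.19% of all genes, of which 0.0052% were called. The smallest p in each branch belonged to Hmgcs1 (0.55 ± 0.17 SE, edgeR adjusted p = 0.57), Lpin1 (−0.43 ± 0.14 SE, edgeR adjusted p = 0.695) and Stard4 (0.38 ± 0.18 SE). Males against females over the 3 diets gave 3 calls, all lower in males: Acly (−0.31 ± 0.07 SE, edgeR adjusted p = 0.00613), Aacs (−0.30 ± 0.08 SE, edgeR adjusted p = 0.0179) and Stard4 (−0.28 ± 0.07 SE, edgeR adjusted p = 0.0254). These were 8.11% of the set, while 1.28% of all genes were lower and 4.87% were called in either direction.

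Acly ranged over 1668 to 2712 CPM in males, with a median of 1928, and over 1946 to 3076 CPM in females, with a median of 2546. Aacs had medians of 89.0 CPM in males and 113 CPM in females. Stard4 had a range of 19.5 to 37.6 CPM in males and of 28.3 to 38.8 CPM in females, and in HFD males it lay within the female range (34.0 to 37.6 CPM). All 3 overlapped between the sexes. Hmgcs1 had the smallest p of the sterol branch (−0.20 ± 0.07 SE, edgeR adjusted p = 0.109). The count was 5 without HFD female 1. Stard4 missed the threshold with no filter on low counts (edgeR adjusted p = 0.106) and in 5 of 24 fits that left out 1 library (without HFD male 3, LPD male 3, ND male 2, ND male 3 or LPD female 3, edgeR adjusted p up to 0.0607), and Aacs missed it with voom (limma adjusted p = 0.0648) and without HFD females 1 and 4 (edgeR adjusted p = 0.0543).

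The remaining members changed little or unevenly. Me1, the cytosolic malic enzyme, which supplies NADPH, stood at 0.34 ± 0.15 SE in HFD against ND males and 0.29 ± 0.15 SE in LPD against ND males. Elovl6, which elongates palmitate, stood at −0.25 ± 0.11 SE and −0.34 ± 0.11 SE in the same comparisons, and every LPD male lay below every ND male. Acss2, which makes acetyl-CoA from acetate, stood at 0.07 and 0.27, and its span overlaps Gss on the opposite strand over 22544 bases. None of these was called in any comparison.

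Other genes of the pathway were read by list, with the shares over all genes for comparison. In HFD against ND males 3.24% of all genes tested were lower and 2.71% higher. LPD against ND males had 0.998% lower and 1.9% called in either direction. Of 11 genes for SREBP processing and turnover, Fbxw7, which marks nuclear SREBP for degradation, was lower in HFD than in ND males (−0.40 ± 0.11 SE, edgeR adjusted p = 0.0333). Of 13 tested genes for sterol efflux and storage, Abca1, a cholesterol export pump (−0.28 ± 0.08 SE, edgeR adjusted p = 0.0398), and Osbp, an oxysterol-binding protein (−0.38 ± 0.09 SE, edgeR adjusted p = 0.0225), were lower too. Abca1 was also lower in LPD than in ND males (−0.35 ± 0.08 SE, edgeR adjusted p = 0.0288). None of these genes was higher in either comparison.

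In HFD against LPD males, 3 of the 11 SREBP processing genes were lower: Fbxw7, Mbtps1, the site-1 protease that cleaves SREBP (−0.27 ± 0.07 SE, edgeR adjusted p = 0.0307), and Erlin2, a membrane protein of the endoplasmic reticulum (−0.28 ± 0.08 SE, edgeR adjusted p = 0.0332). Osbp was lower as well (−0.51 ± 0.09 SE, edgeR adjusted p = 0.00295). In this comparison 6.17% of all genes tested were lower, and 613 of 17830 were higher. Of 25 genes for elongation and complex lipids, Elovl4 was higher (1.06 ± 0.27 SE, edgeR adjusted p = 0.0207) and Agpat3 lower (−0.43 ± 0.10 SE, edgeR adjusted p = 0.0141). Of 8 NADPH-supplying genes, Me3, the mitochondrial malic enzyme, was higher (1.0 ± 0.21 SE, edgeR adjusted p = 0.00615). The 12 genes of the mevalonate side branches (ubiquinone, dolichol and prenylation) gave no call in any of the 9 comparisons. Within females no gene of these 5 lists was called between diets. Males against females gave Hsd17b12, which acts in fatty acid elongation (0.41 ± 0.08 SE, edgeR adjusted p = 0.0015), and Me3 (0.78 ± 0.19 SE, edgeR adjusted p = 0.016), both higher in males. Of 19235 genes tested there, 690 were higher in males. Abcg4, a sterol export pump, was called there and in the HFD effect by sex, but it had 0 counts in 4 of 4 HFD females, and no fold change is given.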

How the data were processed

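Sorted β cells from 24 libraries (6 groups of 4) were analysed from the counts per gene, which the authors deposited with no normalisation; the FPKM values that the authors deposited equal counts over gene length and column total within 0.0005. RNA was rRNA-depleted and libraries strand-specific, but no source used here names the counter, its strand setting or the annotation. The submitters' processing notes name cutadapt 2.10, STAR 2.7.8a, HOMER and DESeq2 and build GRCm38.p6, with no roles. Each sex was fitted apart (12 libraries) in edgeR 4.0.16 (R 4.3.3) with filterByExpr, TMM and the quasi-likelihood test across all genes; contrasts between the sexes used all 24 libraries. A call is a Benjamini-Hochberg adjusted p under 0.05. The SE is the log2 fold change over the square root of F. Displayed CPM are scaled by TMM over 24 libraries, and a count of 0 allows 3 counts; such limits cover counting error only. Alternatives were DESeq2 1.42.0, voom (limma 3.58.1), other scaling and filters, a replicate block and left-out libraries. The code was tested on simulated data. Members and lists were chosen with earlier results of these data known. Every member is named; members called with all libraries have fold change, SE and adjusted p, those called without LPD male 4 in HFD against LPD males are in part named only, and values per library are given for members called at least 2 times, those with the smallest p of a branch, and Srebf1, Srebf2, Insig1, Hmgcs1, Sqle, Fasn, Scd1 and Scd2; values for other members, and the closer accounts without LPD male 4 and HFD female 2, were chosen after the values were seen. Genes of other pathway lists are counted by direction, naming called genes.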

Additional observations from a re-analysis of the deposited data

Results flagged for a closer look

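By edgeR's test of the difference itself, the HFD effect differed between the sexes for Hmgcs1 (0.76 on the log2 scale, males minus females), Msmo1 (0.76) and Insig1 (0.69). Voom with quality weights called none of these genes (limma adjusted p = 0.112, 0.169 and 0.131). Msmo1 was called in 14 of 24 fits that left out 1 library. Within groups of 4 libraries, 1 library lay far from the other 3 (a gap past Dixon's critical value) in 17 of 222 cases looked at over the 37 genes, where chance gives about 1 in 20.

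LPD male 4 was such a low library 4 times: Fads1 (33.9 CPM, the others 67.9 to 72.6), Scd2 (166, the others 390 to 407), Nsdhl (3.85, the others 8.94 to 9.87) and Fdft1 (42.6, the others 48.7 to 48.9). ND female 4 was the high library for Fads1 (72.0 CPM), Lss (65.7) and Acly (2964, the others 1946 to 2077). ND male 4 was high for Sqle (133 CPM) and Fads2 (39.2), and ND female 3 for Tm7sf2 (15.2). LPD female 4 was high for Tm7sf2 (19.5 CPM) and Ebp (19), LPD female 1 for Cyp51 (59.2) and LPD male 2 for Ggps1 (33.1). HFD male 1 was high for Hmgcs1 (64.9 CPM, the others 57.6 to 58.0), and HFD male 2 was low for Acly (1668) and Acss2 (23.6).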

How the results depend on the processing

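Counts of the 37 genes called depended on the tool and on the libraries in the fit; the causes were not tested. The number called over all genes tested in the same fit is given in brackets. In HFD against ND males the count was 8 (1062). It was 16 with voom quality weights (4205) and 3 in 1 fit of all 24 libraries (241). In that fit of 24, Hmgcs1, Stard4 and Lpin1 stayed called. Msmo1, Cyp51, Insig1, Fdft1 and Scd1 missed the threshold (edgeR adjusted p = 0.0532, 0.0668, 0.0668, 0.126 and 0.138). In LPD against ND males the count of 1 (339) was 5 with no filter (648) and 5 with DESeq2 (754). It was 22 with voom (3838) and 0 in the fit of 24 (36). In HFD against LPD males the count of 2 (1714) was 4 with RLE size factors (1690), 4 with no filter (1891) and 5 with DESeq2 (2327). It was 18 with voom (4741), 1 in the fit of 24 (464) and 1 with only the 8 libraries compared (817). In HFD against ND females the count of 0 (549) was 2 with DESeq2 (954) and 2 in the fit of 24 (1794). In HFD against LPD females the count of 0 (566) was 1 with DESeq2 (888) and 3 in the fit of 24 (1661). In LPD against ND females the count of 0 (2) was 3 with voom (1302). For the HFD effect in males minus females the count of 3 (700) was 5 with DESeq2 (1161) and 0 with voom (21). For the LPD effect the count of 0 (1) was 8 with voom (1129). Leaving out 1 library gave 4 to 8 calls (HFD against ND males), 0 to 16 (LPD against ND males), 0 to 14 (HFD against LPD males), 0 to 2 (HFD against ND females), 0 to 1 (HFD against LPD females), 2 to 5 (HFD effect by sex) and 2 to 5 (males against females). None of the leave-out fits turned the direction of a called gene.

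Taking the diets from the library numbers renames the same groups and turns every diet result: HFD against ND males then gave 2 calls, LPD against ND males 8, HFD against LPD males 1, the HFD effect by sex 0 and the LPD effect by sex 3. The fold changes became −0.24 (Hmgcs1), −0.27 (Fdft1), −0.25 (Cyp51), −0.26 (Msmo1), −0.19 (Insig1), −0.42 (Stard4), −0.63 (Scd1) and 0.33 (Lpin1) for HFD against ND males, 0.76 (Lpin1) for LPD against ND males, 0.42 (Srebf2) and 0.33 (Acly) for HFD against LPD males, and −0.20 (Hmgcs1), −0.33 (Msmo1) and −0.37 (Insig1) for the HFD effect by sex.

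Over 24 pairs of same-numbered libraries, of different diets within a sex, the correlation of deviations was −0.072 to 0.055. Whether same-numbered males and females of a diet were paired was not examined. With the replicate block the counts were 7 (HFD against ND males, where Scd1 missed the threshold), 3 (HFD against LPD males) and 2 (HFD effect by sex), and the other counts were the same.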
